A study of Danio rerio with 4 samples.

Results

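The respiratory chain genes described here were all rows on the mitochondrial genome (chrM) of the deposited gene table, and the nuclear rows whose symbols begin with the usual prefixes of respiratory chain genes (nduf, sdha to sdhd, uqcr, atp5, and cox followed by 4 to 8), 6 of them written in capitals. This gave 128 of 17221 genes. The 24 chrM genes were 13 protein-coding genes, 2 rRNA genes and 9 tRNA genes. The 104 nuclear genes were 89 subunit genes, 12 assembly factors (ndufaf and sdhaf genes) and 3 others, the ATP synthase inhibitors *atp5if1a* and *atp5if1b* and the factor B gene *atp5s*. By complex, the subunit genes were 36 for complex I, 5 for complex II, 8 for complex III, 23 for complex IV and 17 for complex V. The *ndufa4* genes were placed in complex IV, where the mammalian protein has been found. All 128 genes had a mean of at least 10 normalized reads and entered the test. The KEGG term for oxidative phosphorylation in the table was attached to 82 of the nuclear subunit genes and to 0 of the chrM genes.

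The respiratory chain passes electrons from NADH and succinate to oxygen through complexes I to IV of the inner mitochondrial membrane, and complex V, the ATP synthase, uses the proton gradient they build. Its subunits are coded by 2 genomes. The small circular mitochondrial genome codes for a few membrane-bound core subunits of complexes I, III, IV and V, while complex II and the many remaining subunits are coded in the nucleus and imported. Heart muscle depends on this pathway for most of its ATP and is among the tissues richest in mitochondria.

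The samples were ventricles of adult AB zebrafish, taken 24 h after cryoinjury, a local freezing injury of the heart wall. One group was WT and the other carried the transgene Tg(hsp70l:sflt4), in which the heat-inducible *hsp70l* promoter drives sflt4, a soluble Flt4 that can bind Vegfc. That promoter is not restricted to one cell type, and WT and transgenic fish alike received heat shock at 39 °C. From either group came 2 stranded mRNA-seq libraries, each from a pool of 3 ventricles, so p-values measure the spread between pools. The values are rounded read counts already scaled by the authors with library size factors, here called normalized reads. Their totals were 34096403 and 33799004 for WT, against 30171847 and 32774116 for the transgenic libraries, always given as replicate 1, then replicate 2. Cardiomyocyte markers were abundant in every library: *tnnt2a*, cardiac troponin T, read 108340 and 125890 in WT against 83770 and 94571 in the transgenic fish.

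No respiratory chain gene passed the test of Tg(hsp70l:sflt4) against WT. limma called 0 of 128 at an adjusted p under 0.05, as it called 0.00% of the 17071 genes tested, and the smallest adjusted p among the 128 was 0.313. With unadjusted p-values 7 genes were under 0.05, all lower in Tg(hsp70l:sflt4), where 5.45% of all genes tested were lower at that threshold, and 0 were higher, where 5.57% were (11.0% in either direction). limma-voom also called 0, with 7 at an unadjusted p under 0.05. The 7 were *mt-nd2*, *mt-nd3*, *mt-nd4l*, a pair of chrM tRNA genes, *cox7a1* and *ndufaf3*. All comparisons that follow therefore give levels and differences, none of which passed the threshold. In 51 of the 128 genes both transgenic libraries lay below both WT libraries and in 3 above, while 74 overlapped. Over all genes tested 21.4% were separated downward and 21.8% upward, 43.2% in all. With 2 libraries per group an exact two-sided permutation test cannot give a p below 0.333.

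The 13 chrM mRNA genes of complexes I, III, IV and V stood lower in Tg(hsp70l:sflt4), while the nuclear subunit genes stood closer to WT. For the complex V genes only the transgenic replicate 1 was low. All 13 had a log2 difference below 0, with a median of -0.45 and a range of -0.68 to -0.15, beside a median of -0.01 over all genes tested, of which 51.3% were below 0. In 10 of the 13 both transgenic libraries lay below both WT libraries, a pattern shown by 21.4% of all genes tested. The 13 genes lie on the same small genome, 12 of them on its plus strand, and were read in the same libraries. They are therefore not 13 independent observations. The shares of all genes are given for scale only. The 13 genes summed to 6211674 and 6088521 normalized reads in WT against 3869974 and 5529792 in the transgenic fish. These sums were 18.2% and 18.0% of the library total in WT against 12.8% and 16.9% in the transgenic fish. The WT libraries thus lay close together, and the transgenic libraries were at 62.9% and 89.9% of the WT mean. Replicate 1 was the lowest library for all 13 genes. Without it the median was -0.26 and 12 of the 13 were below 0.

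Complex I takes electrons from NADH, and its 7 chrM genes code for the hydrophobic core of its membrane arm. All 7 were lower in both transgenic libraries than in both WT libraries, with a median log2 difference of -0.57. *mt-nd2* read 371092 and 348339 in WT against 218977 and 258438 in the transgenic fish, or 359700 ± 16090 against 238700 ± 27900 (SD, n = 2 per group). The fitted log2 difference came to -0.60 (SE 0.20, limma adjusted p = 0.400). *mt-nd3* read 68835 and 65496 against 35455 and 50519 (log2 difference -0.67, SE 0.22, limma adjusted p = 0.397). Unadjusted limma p-values were 0.0278 and 0.0261, and for both the transgenic values lay well outside the WT range.

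*mt-nd4l* and *mt-nd4*, neighbours that vertebrate mitochondria keep on 1 transcript, had nearly the same profile. *mt-nd4l* read 49395 and 47997 in WT against 24783 and 37291 in the transgenic fish, the largest log2 difference among the chrM mRNA genes (-0.68, SE 0.24, limma adjusted p = 0.406). *mt-nd4* read 457737 and 460456 against 252098 and 378012 (log2 difference -0.57). For both, replicate 2 of the transgenic group lay between replicate 1 and WT.

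*mt-nd5* read 301356 and 319462 in WT against 201128 and 256797 in the transgenic fish, and *mt-nd1* read 310755 and 319271 against 229571 and 258989. *mt-nd1* had the smallest difference of the 7 (log2 difference -0.37, SE 0.20, limma adjusted p = 0.540). *mt-nd6*, the one mRNA gene on the minus strand of chrM (14714 to 15232), read 120914 and 130170 against 85831 and 104846. Its difference of -0.40 was thus within the range of the 6 plus-strand complex I genes. The sources used here give no strand setting for the read counting, so *mt-nd6* reads cannot be told apart from antisense reads of its locus.

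*mt-cyb*, cytochrome b of complex III, read 745766 and 723625 in WT against 406817 and 641339 in the transgenic fish. The transgenic replicate 1 was at 55.4% of the WT mean, the lowest of the 4 complexes, and replicate 2 was at 87.3%. On the log2 scale *mt-cyb* differed by -0.52 (SE 0.28, limma adjusted p = 0.543).

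The 3 chrM genes of complex IV, cytochrome c oxidase, code for its catalytic core. *mt-co1*, the most abundant member of all, read 1686972 and 1697159 in WT against 1080503 and 1639397 in the transgenic fish. *mt-co2* read 786160 and 724984 against 454189 and 635212, and *mt-co3* read 570841 and 504400 against 319603 and 521005. In the transgenic replicate 2 *mt-co1* was thus near WT, *mt-co2* was below both WT libraries and *mt-co3* lay between them.

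The chrM genes of complex V, *mt-atp6* and *mt-atp8*, form part of the proton channel and stator of the ATP synthase. *mt-atp6* read 719590 and 723967 in WT against 546046 and 719963 in the transgenic fish, and *mt-atp8* read 22261 and 23195 against 14973 and 27984. Only replicate 1 was low, and for *mt-atp8* the transgenic libraries lay on both sides of WT. Within the chrM group the ratio of summed complex I to summed complex V reads was 2.26 in each WT library against 1.87 and 1.80 in the transgenic libraries. The ratio of complex I to complex IV did not separate the groups (0.552 and 0.578 against 0.565 and 0.481).

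**Figure D1:**
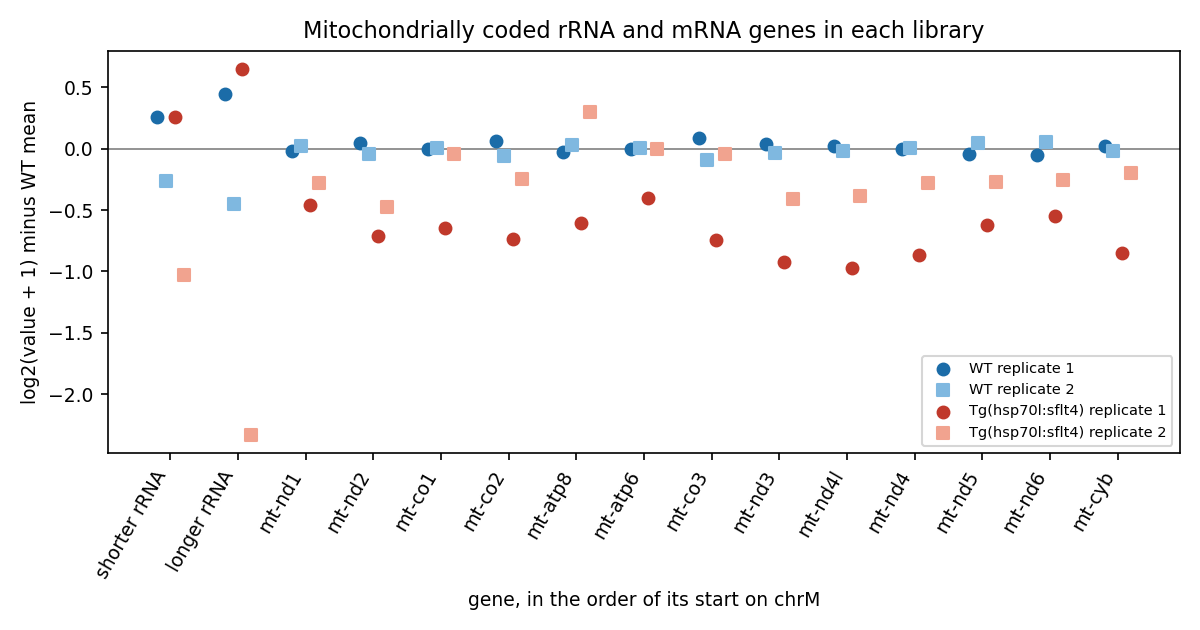
Each point is 1 library, as log2(normalized reads + 1) minus the mean of the 2 WT libraries, for the rRNA and mRNA genes in their order along chrM; circles are replicate 1 and squares replicate 2 of WT (blue) and Tg(hsp70l:sflt4) (red). Replicate 1 of Tg(hsp70l:sflt4) is the lowest library for all 13 mRNA genes, while the rRNA genes spread widely within both groups.

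Per base of gene length, the chrM mRNA genes differed 7.39-fold from highest to lowest mean level. *mt-atp6* averaged 990.3 normalized reads per base, *mt-co1* 983.9 and *mt-co2* 940.9, followed by *mt-co3* at 609.4 and *mt-cyb* at 551.6. These 5 held the first 5 places in every library. The complex I genes were lower, from 286.8 for *mt-nd1* and 285.8 for *mt-nd2* to 148.1 for *mt-nd5* and 134.2 for *mt-nd4l*. *mt-atp8*, whose last 7 bases are also the first 7 of *mt-atp6*, averaged 134.0. The sources used here do not say how reads over shared bases were assigned, and *mt-nd4l* and *mt-nd4* also share 7 bases, so the levels of these short genes are uncertain.

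The rRNA of the mitochondrial ribosome behaved unlike the mRNA. The longer rRNA gene (chrM 2043 to 3725, danRer11) read 318130 and 170769 in WT against 365305 and 46372 in the transgenic fish, and the shorter (1020 to 1971) read 93951 and 65506 against 94045 and 38453. The transgenic libraries held both the highest and the lowest value of each gene, and the summed rRNA differed 5.42-fold between them. As a percentage of chrM mRNA, rRNA was 6.63 and 3.88 in WT against 11.9 and 1.53 in the transgenic fish. The transgenic replicate 1, lowest for chrM mRNA, was highest for rRNA. The libraries were made as mRNA libraries, and the part of this rRNA spread in the mRNA values was not tested.

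Of the 9 tRNA genes, 6 averaged at most 65.0 normalized reads. The highest, a tRNA gene of 72 bases on the minus strand between *mt-nd2* and *mt-co1* (6283 to 6354), read 11611 and 10926 in WT against 6677 and 3972 in the transgenic fish. It had the smallest p and the largest log2 difference of the 128 genes (-1.13, SE 0.26, limma unadjusted p = 0.00567, adjusted p = 0.313). In 6 of the 9 tRNA genes, this one included, both transgenic libraries were below both WT libraries, as in 21.4% of all genes tested. Without a stated strand setting these reads cannot be told apart from reads of plus-strand precursors across the same bases.

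Nuclear subunit genes showed a small difference that rested on the transgenic replicate 1. Of 89 genes, 69 had a log2 difference below 0, with a median of -0.12 and a range of -0.65 to 0.54. The ends of that range were *ndufa9b* and *ndufa4l2a*, both genes with few reads. The 89 genes summed to 605764 and 606093 normalized reads in WT against 509382 and 614787 in the transgenic fish. Replicate 1 was thus at 84.1% of the WT mean and replicate 2 at 101%. Replicate 1 was below both WT libraries for 73 genes and replicate 2 for 27, while replicate 2 was above both WT libraries for 33. Over all 17071 genes tested the same counts were 5464, 5869 and 5913, in that order. Non-overlapping groups with lower values in Tg(hsp70l:sflt4) were seen for 27 genes (30.3%, beside 21.4% of all genes tested), and with higher values for 1 gene, *cox6a1* (21.8% of all genes tested). Without the transgenic replicate 1 the median was 0.01. With the libraries scaled to equal totals, which moved the median of all genes from -0.01 to 0.0995 on the log2 scale, 47 of the 89 genes were below 0 and 42 above, and all 13 chrM mRNA genes were still below 0.

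Among the 36 nuclear genes of complex I, 30 were below 0 (median -0.14) and 13 had non-overlapping lower values (36.1%, beside 21.4% of all genes tested). The 6 listed genes for conserved catalytic core subunits all had differences below 0, with a median of -0.21. *ndufv1*, the NADH-oxidizing flavoprotein (chromosome 19, 9212031 to 9228512), read 10206 and 10286 in WT against 8273 and 9258 in the transgenic fish. *ndufs8a*, an iron-sulfur subunit on the path to ubiquinone, read 8765 and 9377 against 7750 and 7961, and *ndufs7*, which carries the last iron-sulfur cluster, read 3210 and 3312 against 2587 and 3077. In these 3 genes the groups did not overlap, and the means were 13.2% to 14.5% lower. The difference furthest below 0 was that of *ndufa9b*, read at a far lower level than *ndufa9a*, at 86 and 97 against 63 and 53, while *ndufa9a* itself read 4401 and 4288 against 3769 and 4346. Among the accessory subunits, *ndufa12* read 2791 and 2770 against 2059 and 2573, and *ndufa10* read 5928 and 5110 against 5401 and 6204.

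Complex II, succinate dehydrogenase, has no chrM gene and links the chain to the citric acid cycle. Its flavoprotein gene *sdha* (chromosome 19, 7276060 to 7291733) read 14189 and 15214 in WT against 10939 and 13381 in the transgenic fish, a mean 17.3% lower (log2 difference -0.28, SE 0.17, limma adjusted p = 0.588). The iron-sulfur subunit gene *sdhb* read 5411 and 5910 against 4736 and 5895. The membrane anchor genes *sdhc* (3297 and 3671 against 2945 and 3465) and *sdhdb* (1858 and 1739 against 1788 and 1942) overlapped too. *sdhda* was at 78 to 88 in every library, with both transgenic libraries at 78.

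Complex III, the cytochrome bc1 complex, was the nuclear group nearest to WT, with a median log2 difference of -0.04 and overlapping groups for all 8 genes. *uqcrfs1*, the Rieske iron-sulfur protein, read 12078 and 11393 in WT against 11424 and 13115 in the transgenic fish. The core protein gene *uqcrc1* read 11095 and 10289 against 10444 and 11455. The small subunit gene *uqcr10* had the highest difference of the group, 4417 and 3838 against 3908 and 5740, with replicate 2 alone above WT. *uqcrb* was listed at 15 to 23 normalized reads in every library. *cyc1*, cytochrome c1 of the same complex, which the prefixes miss, read 13062 and 13181 against 11636 and 13452. In the transgenic replicate 1, the nuclear genes of complex III summed to 92.1% of the WT mean, beside 55.4% for *mt-cyb*.

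Complex V had 15 of 17 nuclear genes below 0, with a median log2 difference of -0.13. The catalytic beta subunit gene *atp5f1b* (chromosome 11, 13207898 to 13213059), the most abundant nuclear member, read 61465 and 62967 in WT against 52259 and 62094 in the transgenic fish. The alpha subunit gene *atp5fa1* read 46524 and 46854 against 40445 and 46373. *atp5pb*, of the peripheral stalk, read 18764 and 18807 against 15813 and 17427, and *atp5pf*, of the same stalk, read 5961 and 7122 against 4752 and 5917. In the last 3 the groups did not overlap, although the transgenic replicate 2 lay next to the WT range for *atp5fa1* and *atp5pf*. Of the 17 genes, 6 had non-overlapping lower values (35.3%, beside 21.4% of all genes tested), 0 had higher ones (beside 21.8%) and 11 overlapped.

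Against these, *atp5pd*, another stalk subunit gene, read 10217 and 12204 in WT against 11330 and 15509 in the transgenic fish, the highest difference of the group (log2 difference 0.25). The c subunit of the rotor ring comes from several genes with one mature product. *atp5mc3b* read 15247 and 13752 against 11205 and 13459, *atp5mc3a* read 7178 and 6974 against 6170 and 6816, and *atp5mc1* read 10897 and 9367 against 9325 and 11206. The read ratio of *atp5mc1* to *atp5mc3b* was 0.715 and 0.681 in WT against 0.832 and 0.833 in the transgenic fish. The inhibitor genes, whose products stop ATP hydrolysis when the gradient collapses, were lower in both transgenic libraries. *atp5if1b* read 9407 and 11076 against 8226 and 8817, and *atp5if1a* read 2625 and 2733 against 2294 and 2592. *atp5s*, the factor B gene, read 417 and 451 against 343 and 372.

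**Figure D2:**
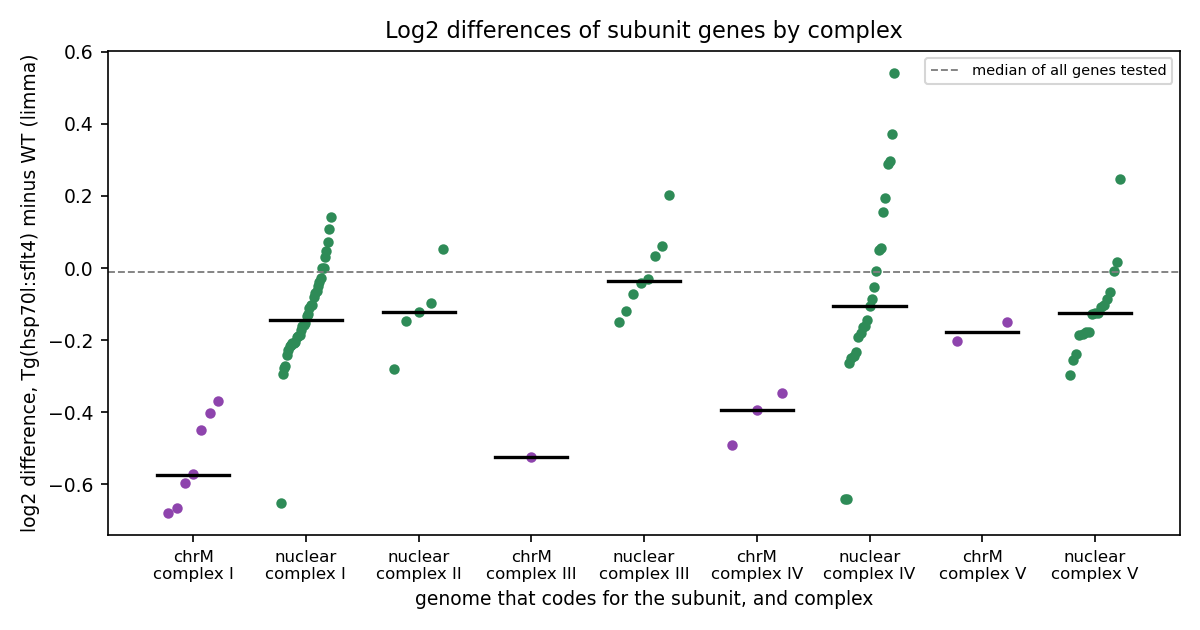
Each point is 1 subunit gene, as its limma log2 difference of Tg(hsp70l:sflt4) minus WT, with chrM genes in purple and nuclear genes in green; black bars are medians, and the dashed line is the median of all genes tested, -0.01. The chrM medians lie at -0.57, -0.52, -0.40 and -0.18 for complexes I, III, IV and V, and the nuclear medians between -0.14 and -0.04.

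The comparison of the genomes within a complex can be made inside each library, where library scaling has no effect. The ratio of summed chrM mRNA to summed nuclear subunit mRNA was 10.25 and 10.05 in WT against 7.60 and 8.99 in the transgenic fish, or 10.1 ± 0.148 against 8.30 ± 0.988 (SD, n = 2 per group). For complex I the ratio was 14.1 and 14.0 against 10.2 and 11.4. Both transgenic libraries lay below both WT libraries, and the WT pair differed far less than the transgenic pair.

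For complex III the ratio was 15.3 and 15.7 in WT against 9.31 and 12.4 in the transgenic fish. For complex IV it was 17.9 and 17.8 against 13.7 and 16.4, and for complex V 3.06 and 3.01 against 2.71 and 3.00. As differences of median log2 difference, chrM minus nuclear, the values were -0.43 for complex I, -0.49 for complex III, -0.29 for complex IV and -0.05 for complex V. Without the transgenic replicate 1 they were -0.26, -0.29, -0.08 and 0.14, in that order, so the sign for complex V depended on that library. For complexes I, III and IV the chrM median was below the nuclear median whichever transgenic library was used. Whether the complexes differ from each other was not tested.

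**Figure D3:**
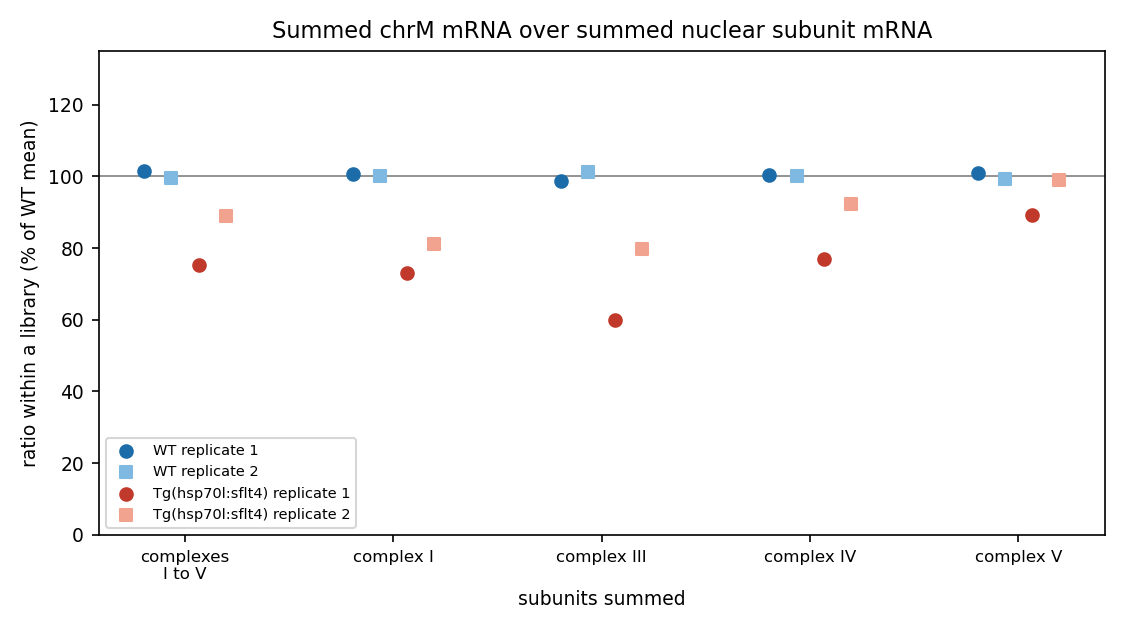
Each point is the ratio of summed chrM mRNA to summed nuclear subunit mRNA in 1 library, as a percentage of the mean of the 2 WT libraries, for all complexes and for each complex with genes in both genomes. The ratio over all complexes is 7.60 and 8.99 in Tg(hsp70l:sflt4) beside 10.25 and 10.05 in WT, and for complex V the transgenic replicate 2, at 3.00, is next to WT.

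Nuclear complex IV genes had the widest range of log2 differences of the nuclear groups, from -0.64 to 0.54. The upper end was *ndufa4l2a*, a gene with few reads and overlapping groups (SE 0.50), and the next highest was *cox6a1* at 0.37. Several subunits of cytochrome c oxidase have, in mammals, a form made in heart and skeletal muscle and a form made in most tissues. *cox7a1*, named for the muscle form, read 4532 and 3996 in WT against 2337 and 3189 in the transgenic fish (chromosome 15, 20403084 to 20405796). It had the smallest p of the nuclear genes (log2 difference -0.64, SE 0.19, limma unadjusted p = 0.0173, adjusted p = 0.369). Its counterparts *cox7a2a* and *COX7A2* overlapped between groups: *cox7a2a* read 906 and 875 against 898 and 1318, and *COX7A2* 718 and 629 against 691 and 988. The ratio of *cox7a1* reads to the sum of these counterparts was 2.79 and 2.66 in WT against 1.47 and 1.38 in the transgenic fish, or 52.4% of the WT mean.

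The same held for 2 more pairs. *cox6a2*, the muscle form, read 12241 and 13886 in WT against 9997 and 12025 in the transgenic fish, and *cox6a1*, the general form, read 2820 and 2810 against 3263 and 4063. *cox6a1* was the one nuclear subunit gene with both transgenic libraries above both WT libraries (log2 difference 0.37, SE 0.16, limma adjusted p = 0.469). The ratio of *cox6a2* to *cox6a1* was 4.34 and 4.94 in WT against 3.06 and 2.96 in the transgenic fish.

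*cox8b*, the muscle form, read 12011 and 11745 in WT against 8654 and 11630 in the transgenic fish, and *cox8a* read 1830 and 1594 against 1779 and 2147. Their ratio was 6.56 and 7.37 in WT against 4.86 and 5.42 in the transgenic fish. In these 3 cases both transgenic libraries lay below both WT libraries. In the transgenic replicate 2 the *cox8b* reads were next to the WT range, and the *cox8a* reads were above it. Of 16 paralogue ratios computed over all complexes, 4 were lower in both transgenic libraries, 3 were higher in both and 9 overlapped. Of all genes tested, taken singly and not as ratios, 21.4% were separated downward and 21.8% upward. Some ratios share a gene, as *cox7a1* does with *cox7a3*. The paralogues were chosen with the values of these genes known, and the ratios carry no test. Reads of close paralogues can be split between them, which was not checked here.

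Other paralogues of complex IV were mixed. *cox4i1* read 17343 and 17324 in WT against 13045 and 15961 in the transgenic fish, and *cox4i1l* read 14750 and 10833 against 8973 and 12906. *cox4i2*, whose mammalian form is found in lung and responds to oxygen, read 643 and 300 against 284 and 279, so its difference rested on WT replicate 1. The ratios of *cox6b2* to *cox6b1* (1.40 and 1.41 against 1.42 and 1.35) and of *cox5aa* to *cox5ab* (3.11 and 2.77 against 3.24 and 2.63) overlapped between groups. *cox5b2* to *COX5B*, at 2.33 and 1.85 against 1.73 and 1.54, was the last of the lower ratios. *cox7a3* to *cox7a1* was higher, at 0.927 and 1.01 against 1.42 and 1.28.

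*ndufa4* read 20194 and 18181 in WT against 16677 and 19506 in the transgenic fish, and *ndufa4l* read 16243 and 17265 against 13493 and 17021. *ndufa4l2a*, whose mammalian relative is induced by low oxygen, was low at 88 and 35 against 96 and 69. The remaining subunits with 1 gene, *cox6c* (10225 and 9607 against 8348 and 10939), *cox7b* (5516 and 5560 against 4635 and 5722) and *cox7c* (4920 and 5081 against 4346 and 5693), had the same order: replicate 1 lowest and replicate 2 highest.

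**Figure D4:**
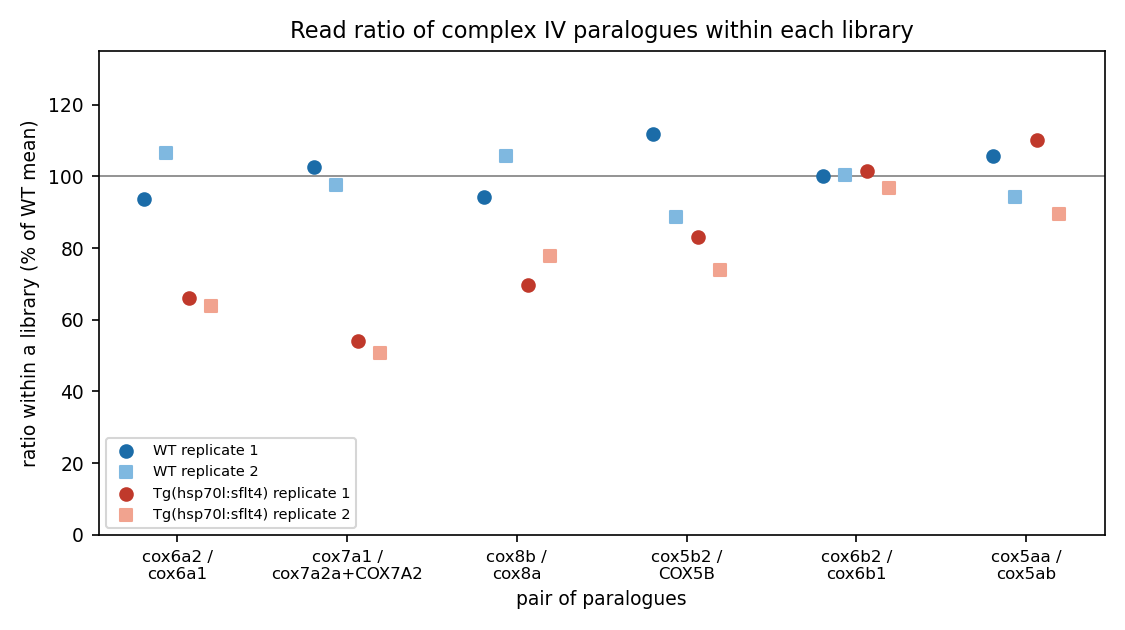
Each point is the read ratio of a pair of complex IV paralogues in 1 library, as a percentage of the mean of the 2 WT libraries. The 3 ratios of muscle-named to general forms on the left are lower in both Tg(hsp70l:sflt4) libraries (for *cox7a1*, 1.47 and 1.38 beside 2.79 and 2.66). *cox5b2* to *COX5B*, not among those 3, is also lower in both, while *cox6b2* to *cox6b1* and *cox5aa* to *cox5ab* overlap.

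Assembly factors, which help build the complexes without staying in them, were mixed. Of the 12 genes taken by prefix, 8 were below 0 and 4 above, with a median of -0.06. *ndufaf3*, for early complex I assembly, read 1268 and 1401 in WT against 1011 and 1020 in the transgenic fish (log2 difference -0.39, SE 0.14, limma unadjusted p = 0.0296, adjusted p = 0.406). *ndufaf6* read 361 and 366 against 242 and 305, and *sdhaf2*, which adds the flavin to Sdha, read 2108 and 2654 against 1853 and 1941. *NDUFAF8* went the other way at 182 and 166 against 183 and 234. Of 40 assembly genes outside the prefixes, 21 were below 0 and the median was -0.01. *uqcc3*, for complex III, read 670 and 642 against 452 and 515. *coa3b*, for complex IV, read 136 and 137 against 55 and 99. *bcs1l*, which inserts the Rieske protein, read 487 and 423 against 541 and 625.

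Genes that make the chrM transcripts and proteins did not stand lower as a list. Of 42 genes for mitochondrial DNA maintenance, transcription, RNA processing and translation, 0 were called by limma. At an unadjusted limma p under 0.05, 1 was higher and 0 were lower, where 5.57% and 5.45% of all genes tested were. The median log2 difference was 0.06 and 27 were above 0, where 48.7% of all genes tested were. Non-overlapping values were higher in 15 (35.7%, beside 21.8% of all genes tested) and lower in 7 (16.7%, beside 21.4%). The 1 gene under that p threshold was *gfm1*, the mitochondrial elongation factor G, at 1358 and 1456 in WT against 1919 and 2289 in the transgenic fish. The RNA polymerase gene *polrmt* read 323 and 294 against 347 and 346, and *tfam*, which packages the DNA and starts transcription, read 892 and 795 against 746 and 852. *lrpprc*, which stabilizes mitochondrial mRNA, read 3800 and 3198 against 3892 and 3863. The last 3 were named for their role, after their values were seen. Below 0 stood *mterf3*, a repressor of mitochondrial transcription in mammals (197 and 224 against 128 and 159), and *fastk*, which in mammals takes part in *mt-nd6* mRNA maturation (1820 and 1778 against 1523 and 1379). Of 74 genes for proteins of the mitochondrial ribosome, 53 were above 0 (48.7% of all genes tested), with a median of 0.06 and non-overlapping higher values in 17 (23.0%, beside 21.8%).

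Nuclear regulators of respiratory genes showed 0 calls among 22 genes, with 3 lower and 1 higher at an unadjusted p under 0.05, where 5.45% and 5.57% of all genes tested were. *pprc1*, a coactivator of the Pgc1 family, read 996 and 1161 in WT against 1668 and 1632 in the transgenic fish (log2 difference 0.62, limma adjusted p = 0.313). *perm1b*, matched by gene identifier and in mammals a muscle regulator acting with Pgc1 and estrogen-related receptors, read 4907 and 4128 against 2955 and 2663. *hif1aa*, for a hypoxia-inducible factor, read 759 and 907 against 603 and 614. The better-known members *nrf1* (702 and 783 against 757 and 800), *gabpa* (796 and 844 against 789 and 854) and *ppargc1a* (191 and 114 against 203 and 88) overlapped between groups and were named after their values were seen.

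Neighbouring steps of energy metabolism had more genes below 0 than above. Of 27 genes of the citric acid cycle and pyruvate dehydrogenase, 0 were called and 19 were below 0, with a median of -0.18 and non-overlapping lower values in 11 (40.7%, beside 21.4% of all genes tested) and higher values in 4 (14.8%, beside 21.8%). Their sum was 295466 and 292617 in WT against 242222 and 255615 in the transgenic fish, below WT in both transgenic libraries. *pdk2a*, a kinase that inhibits pyruvate dehydrogenase and is counted in this list and sum, read 18325 and 12015 against 9392 and 3959. *suclg2*, for the GTP-forming succinyl-CoA ligase, was higher at 1367 and 1582 against 2425 and 2071, as was *ogdhb* at 1040 and 1200 against 1349 and 1513.

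Of 16 genes listed as other subunits and carriers, channel and creatine kinase genes included, 13 were below 0. The most abundant was *slc25a5*, an ADP/ATP carrier, at 271698 and 301925 against 186080 and 231532. The outer-membrane channel gene *vdac2* read 42284 and 39406 against 29917 and 31858, and *ckmt2b*, a mitochondrial creatine kinase, 6481 and 5142 against 3675 and 4399. Among 38 import, chaperone and membrane-shaping genes 18 were below 0 and 20 above. *tomm40l*, of the import pore, read 696 and 839 against 979 and 1155, *mfn1b*, a mitofusin, 8553 and 6465 against 5123 and 5398, and *clpxa*, of a matrix protease, 2196 and 3441 against 1947 and 1866.

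Marker sums of cell types also differed between the groups. Of 24 cardiomyocyte marker rows, none at 0 in any library, 18 were below 0. The 24 rows summed to 2279581 and 1949242 in WT against 1642639 and 1715098 in the transgenic fish. This sum, and any ratio to it, leans on its highest rows, *myh7l* (703025 and 527025 against 404577 and 437436) and *myl7* (335222 and 316610 against 204313 and 245157). The 6 rows above 0 included *csrp3* (14744 and 15076 against 18647 and 18635) and *myh6* (5811 and 5561 against 12678 and 7074). Of 24 macrophage marker rows, none at 0 in any library, 18 were above 0. The 24 rows summed to 84857 and 93065 in WT against 114008 and 153557 in the transgenic fish. This sum too leans on its highest rows, *lcp1* (14852 and 15781 against 21048 and 29751) and *grn1* (13171 and 7444 against 21140 and 27956). Not all markers followed. The 6 rows below 0 included *csf1ra* (2129 and 1179 against 1165 and 829), *cd74a* and *cd74b*, and *mpeg1.1* overlapped (5184 and 4611 against 4320 and 5642). In bulk tissue fewer cardiomyocytes and less respiratory chain or marker mRNA per cardiomyocyte cannot be told apart. The ratio of chrM mRNA to cardiomyocyte marker reads was 2.72 and 3.12 in WT against 2.36 and 3.22 in the transgenic fish, and that of nuclear subunit to cardiomyocyte marker reads was 0.266 and 0.311 against 0.310 and 0.358. Neither of these ratios separated the groups, although the nuclear values nearest each other differed by little. Taken by complex, the ratio to cardiomyocyte markers was higher in both transgenic libraries for nuclear complex I (0.0524 and 0.0620 against 0.0624 and 0.0691) and complex III (0.0214 and 0.0237 against 0.0266 and 0.0302), and overlapped for complexes II, IV and V. The part of cell composition in the chrM values and in the paralogue ratios was not tested.

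The remaining marker lists were mixed. The 15 erythrocyte marker rows summed to 86004 and 48943 in WT against 40329 and 79768 in the transgenic fish, the 11 fibroblast markers to 181710 and 94487 against 182279 and 180850, and the 15 endothelial markers to 62365 and 56722 against 56934 and 53340. Of the 10 skeletal muscle markers 6 were below 0 and 4 above, and 1 was at 0 in some library. They summed to 134817 and 88168 against 78683 and 86990, in the same order of libraries as the *cox7a1* reads. This sum rests almost wholly on *acta1b* (56485 and 36082 against 27140 and 39762), *ckma* (52173 and 42406 against 38690 and 36475) and *acta1a*. Both transgenic libraries were below both WT libraries in 3 rows and above them in 3, *mybpc1* and *mybpc2b* among the higher ones. Each count is 30.0% of the rows, beside 21.4% downward and 21.8% upward over all genes tested. The part of skeletal muscle RNA in the *cox7a1*, *cox6a2* and *cox8b* values was not tested. Sums were 16448 and 11037 against 11359 and 11578 for 8 smooth muscle markers, 62230 and 43020 against 46295 and 43110 for 11 epicardial markers, and 14198 and 19892 against 16090 and 22990 for 10 neutrophil markers.

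**Figure D5:**
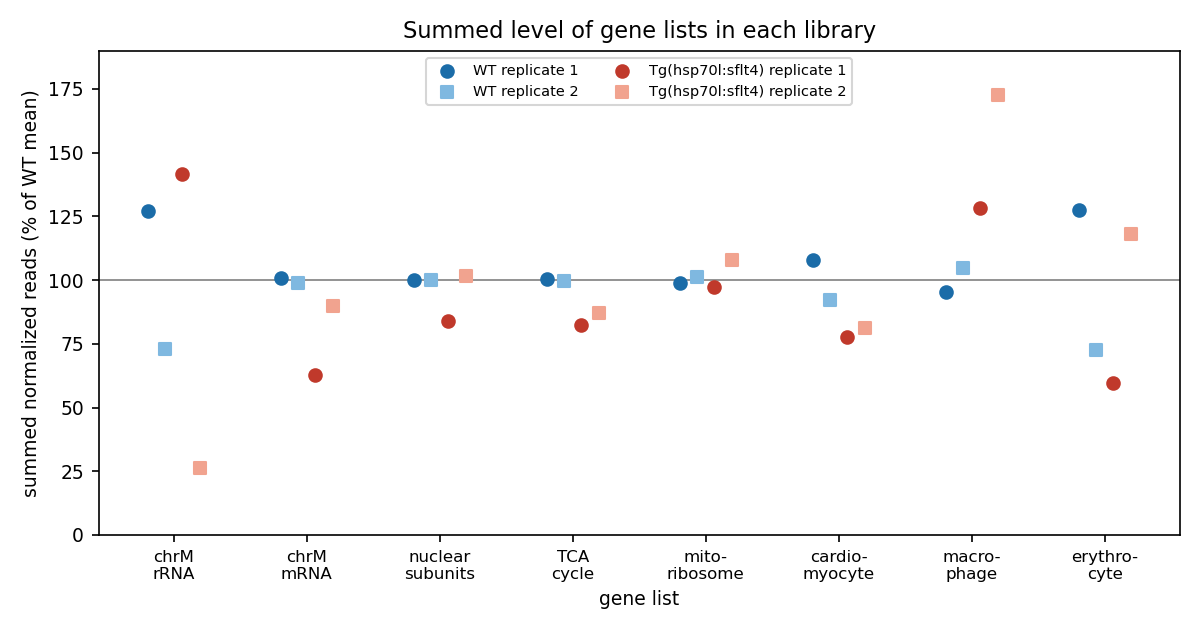
Each point is the sum of normalized reads of a gene list in 1 library, as a percentage of the mean of the 2 WT libraries, with the y axis starting at 0. chrM mRNA is at 62.9% and 89.9% in Tg(hsp70l:sflt4) and nuclear subunits at 84.1% and 101%. The list labelled TCA, of citric acid cycle and pyruvate dehydrogenase genes with *pdk2a* included, is at 82.4% and 86.9%. Cardiomyocyte markers are at 77.7% and 81.1%, and macrophage markers at 128% and 173%, while chrM rRNA spreads from 26.2% to 142%.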

How the data were processed

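The deposited table gives 1 value per gene and library as a score, neither a raw count nor a rate: a read count that the authors scaled with library size factors and then rounded, per the table's own naming and its values. The submitters' processing notes name Trimmomatic 0.38, featureCounts 1.6.3, DESeq2 1.18.1 and danRer11 in no stated role, and the sources used here name no aligner. Columns were mapped through the sample titles. As the values are not raw counts, no count test was used for the main fit. The alternative limma-voom, a method made for raw counts, was run on the same scaled values.

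limma 3.58.1 in R 4.3.3 was fitted on log2(value + 1) with trend and robust moderation, without covariates, over 17071 genes, those averaging 10 or more. p-values were adjusted by Benjamini-Hochberg over all of them, and the fit was tested on simulated data. Sums and ratios used normalized reads. Alternatives were another pseudocount, filters, scalings, moderation, limma-voom, a replicate block and leaving out each library.

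Members, 16 gene lists and the rule for named genes (all chrM mRNA and rRNA genes, the 4 highest and the 3 with the smallest p per nuclear group, set paralogues, the 3 largest folds each way, up to 3 genes per list) were chosen with earlier results of these data known. The text names part of them and some further genes chosen after their values were seen. The reference names table matched list members by identifier where the table gave a clone name. The values of 1 item are not reported here.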

Additional observations from a re-analysis of the deposited data

How the results depend on the processing

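Of the respiratory chain genes, 0 were called under each of the 13 alternatives to the fit, and over all genes 0 were called in each alternative that kept all 4 libraries. The smallest adjusted limma p of a respiratory chain gene ranged from 0.0746 to 0.878 over these alternatives. Leaving out single libraries gave 0 to 217 calls over all genes (217 when WT replicate 1 was left out, 73 when WT replicate 2 was), the lone library of a group being assumed to vary like the others. Across these fits the median log2 difference ranged from -0.72 to -0.26 for chrM mRNA genes and from -0.25 to 0.0122 for nuclear subunits. The chrM minus nuclear difference ranged from -0.47 to -0.26 in complex I, -0.74 to -0.29 in complex III, -0.48 to -0.0756 in complex IV and -0.24 to 0.14 in complex V. The log2 ratio of summed chrM to nuclear mRNA, -0.30 with all libraries, ranged from -0.42 to -0.17. The extremes of these 7 log2 ranges came from leaving out either transgenic library. With equal totals the chrM and nuclear medians were -0.34 and -0.01, and with equal nuclear totals -0.40 and -0.07. Replicate numbers gave no stated pairing, and replicate 1 deviations of the groups correlated at 0.137 over genes. With the replicate block the medians were -0.45 and -0.12, the log2 ratio of sums was -0.30, the chrM minus nuclear differences were -0.43, -0.49, -0.29 and -0.05, and 0 genes were called, with 2285 at an unadjusted p under 0.05 beside 1881 without it. Of 74 genes followed singly, 47 kept their sign in all alternatives. The 27 others turned sign in at least 1, most often without the transgenic replicate 1 (13), without replicate 2 (11) or with equal totals (10), and the cause was not tested. The number of pools, 2 per group, limits the precision, and read depth was not tested as a limit.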

Other observations

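The KEGG term for oxidative phosphorylation in the deposited table also covers 32 genes outside the respiratory chain prefixes. Of them, 22 were counted here for the vacuolar proton pump (V-ATPase), which acidifies lysosomes and endosomes. The 22 leave out *atpv0e2*, which is also named for a V-ATPase subunit. It read 234 and 259 in WT against 194 and 253 in the transgenic fish (log2 difference -0.15). Of these 22 genes 0 were called by limma, 18 were above 0, with a median log2 difference of 0.31, and 8 had both Tg(hsp70l:sflt4) libraries above both WT libraries (36.4%, beside 21.8% of all genes tested). The lowest library was WT replicate 1 for 17 of the 22 and the highest was transgenic replicate 2 for 15. The macrophage marker sum had the same lowest and highest library (84857 and 93065 in WT, 114008 and 153557 with the transgene), and its part in the V-ATPase values was not tested. *atp6v1ba*, of the pump's catalytic head, read 8326 and 10206 in WT against 11521 and 16746 in the transgenic fish, and *atp6v1e1b*, of its stalk, read 3380 and 4508 against 4989 and 6880. A few went the other way, such as *atp6ap1a* at 301 and 341 against 246 and 174, while its more abundant paralogue *atp6ap1b* read 4238 and 5665 against 5251 and 6636. The 17 nuclear ATP synthase genes had a median of -0.13, on the other side of 0, and whether the lists differ was not tested. These genes were chosen after their values were seen.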
